A study of Mus musculus with 25 samples.

Results

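The 10 genes described here are the core survival and death genes of the BCL2 family in sorted mouse CD4 T cells. They were taken by name from a list: the anti-apoptotic genes Bcl2, Bcl2l1 and Mcl1, the BH3-only genes Bcl2l11, Bbc3, Pmaip1, Bid and Bad, and the effector genes Bax and Bak1. The list was chosen with earlier results of these data known. All 10 were found among the 46078 genes of the count table, and all 10 passed the low-count filter that left 14703 genes for testing. The libraries came from total RNA of CD4 T cells sorted from C57BL/6NTac mice, made with a strand-specific total RNA kit and sequenced paired-end on an Illumina NovaSeq instrument. The mice were wild-type for miR-150, a microRNA abundant in mature lymphocytes, or carried a miR-150 knock-out or a miR-150 knock-in. Each genotype was sampled in the naive state and on day 7 after induction of experimental autoimmune encephalomyelitis (EAE), a mouse model of T cell driven inflammation of the central nervous system. This gave 4 naive and 5 day 7 wild-type libraries, 4 naive and 4 day 7 knock-out libraries, and 4 naive and 4 day 7 knock-in libraries, 25 in all. The immunogen, the construct behind the knock-in, the organ, age and sex of the mice and the gates of the sort are not given in the sources used here, nor is it stated that each library came from a separate mouse. The p-values therefore measure the spread between these libraries, which may be technical.

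BCL2 family proteins decide whether the outer membrane of the mitochondrion stays intact. BAX and BAK, the effectors, form pores that release cytochrome c and start the caspase cascade, and BCL2, BCL-XL (from Bcl2l1) and MCL1 hold them in check. The BH3-only proteins sense stress and either neutralise the anti-apoptotic proteins or activate the effectors directly. In T cells, BCL2 and MCL1 are known for keeping naive and memory cells alive, largely under interleukin-7 signalling, and BIM (from Bcl2l11) for the death of cells whose cytokine or antigen supply ends.

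The genes lie on separate loci of the mouse genome (mm10, gene models of GENCODE M21). Bcl2 is at chr1:106538178-106714274, minus strand, Mcl1 at chr3:95658788-95663176, plus strand, Bcl2l1 at chr2:152780668-152831728, minus strand, and Bcl2l11 at chr2:128126038-128162547, plus strand. Bbc3 is at chr7:16308393-16318205, plus strand, Bid at chr6:120891930-120916853, minus strand, and Bad at chr19:6941861-6951899, plus strand. Bax is at chr7:45461697-45466898, minus strand, and Bak1 at chr17:27019810-27029009, minus strand. Bax lies 339.9 kb from Mir150 on chromosome 7, and Bbc3 lies 28804 kb from it. No source used here gives the strand setting of the counting, so reads of genes that overlap a member could have entered its count. The tested genes that overlap Bcl2 had a mean of 21.1 CPM (counts scaled to library size) at Gm37053, a gene model of type TEC on the same strand, and under 1 CPM at D630008O14Rik and Mir3473f, against 213.6 CPM for Bcl2 itself. Bcl2l13, on the strand opposite Bid, stood at 37.02 CPM against 9.41 CPM for Bid, and Gpr137, opposite Bad, at 3.63 CPM against 4.30 CPM for Bad. Ggnbp1, opposite Bak1, stood at 4.21 CPM.

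The 250 bases before the RefSeq start of Bcl2, Mcl1, Bcl2l11 and Bax are shown because these are the 4 members whose day 7 change averaged over the 3 genotypes passed the test. Sequences are from RefSeq (GRCm38.p6), 5′ to 3′ on the strand of the gene, with motif matches in capitals.
Bcl2 promoter, chr1:106714291-106714540, minus strand: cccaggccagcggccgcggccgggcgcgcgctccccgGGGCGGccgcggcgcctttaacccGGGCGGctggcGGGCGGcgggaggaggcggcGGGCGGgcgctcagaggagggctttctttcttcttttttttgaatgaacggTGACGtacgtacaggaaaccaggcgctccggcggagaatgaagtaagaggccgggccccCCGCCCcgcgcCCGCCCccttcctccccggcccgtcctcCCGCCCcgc
Mcl1 promoter, chr3:95658471-95658720, plus strand: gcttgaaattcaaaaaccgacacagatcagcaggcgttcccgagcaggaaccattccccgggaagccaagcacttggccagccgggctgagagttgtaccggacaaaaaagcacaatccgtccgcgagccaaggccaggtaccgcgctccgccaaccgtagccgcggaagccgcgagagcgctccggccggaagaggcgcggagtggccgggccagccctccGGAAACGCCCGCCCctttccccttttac
Bcl2l11 promoter, chr2:128125788-128126037, plus strand: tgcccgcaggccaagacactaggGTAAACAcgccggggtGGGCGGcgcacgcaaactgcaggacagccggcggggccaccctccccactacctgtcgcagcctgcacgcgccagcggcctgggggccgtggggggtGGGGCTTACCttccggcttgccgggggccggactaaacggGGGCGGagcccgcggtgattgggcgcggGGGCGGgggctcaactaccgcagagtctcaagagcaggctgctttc
Bax promoter, chr7:45466899-45467148, minus strand: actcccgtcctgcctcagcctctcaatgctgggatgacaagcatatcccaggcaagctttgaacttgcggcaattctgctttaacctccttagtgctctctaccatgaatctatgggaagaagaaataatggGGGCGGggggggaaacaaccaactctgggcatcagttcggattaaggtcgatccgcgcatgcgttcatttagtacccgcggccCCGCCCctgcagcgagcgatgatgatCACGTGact
The 8 motifs searched on both strands were SP1 (GGGCGG), CRE (TGACGTCA), a shortened CRE (TGACG), AP-1 (TGANTCA), FOXO (TGTTTAC), NF-kappaB, STAT (TTCNNNGAA) and the E-box (CACGTG). A promoter record was at hand for 9 of the 10 members. Bcl2l11 and Bad had 2 RefSeq starts each, and Bcl2l1 and Bbc3 had 3. For these the start nearest the GENCODE gene start was taken, and the others were left out of the member counts. The shares over all records were not limited to a single start per gene. The window of Bak1 lies wholly within GENCODE exons of Bak1 and Ggnbp1, and that of Bid holds 29 exon bases. The GC-rich SP1 motif, which matched in 7 of these 9, was present in 32.7% of all 32851 promoter records. FOXO matched only in Bcl2l11 (3.17% of all records), the E-box only in Bax (6.02%), the shortened CRE in Bcl2 and Bbc3 (17.8%), and NF-kappaB in Mcl1, Bcl2l11 and Bbc3 (4.11%). In Mcl1 the NF-kappaB match overlapped the SP1 match. The full CRE (1.55% of all records), AP-1 (6.75%) and STAT (7.02%) had no match in the windows of the 9 members. The 4 windows shown share SP1 and no other motif of the search, and their GC content ran from 54 to 74.8%, against a median of 52.4% over all records. A match is a string of letters and does not show a bound site.

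Library totals ran from 6024043 to 49489134 counts with a median of 16312725, and the 4 naive wild-type libraries were the shallowest group (6024043 to 9351180 counts). Mir150 had 0 counts in all 8 knock-out libraries, 20.2 ± 4.86 CPM (SD, n = 4) in naive wild-type cells and 14.3 ± 1.42 CPM (SD, n = 4) in naive knock-in cells, so the knock-out libraries carry the labelled loss, while the knock-in libraries were not above wild-type. These are reads of the precursor RNA, not of the mature microRNA. T cell markers were high in every library: the 10 of them summed to 2679 to 3029 CPM, with Cd4 means of 474 to 536 CPM. None of the 10 was called with edgeR in the 12 comparisons (12 of their values had an unadjusted p under 0.05, and DESeq2 called 3). B cell markers summed to 139 to 201.5 CPM, most of it Ighm (group means 157 to 165 CPM). Myeloid markers summed to 3.37 to 18.4 CPM and erythroid markers to 0 to 10.3 CPM. Neither the B cell, the myeloid nor the erythroid list had a call with edgeR in any comparison (10, 9 and 11 values had an unadjusted p under 0.05, and DESeq2 called 1, 1 and 0). Markers of CD8, NK and gamma-delta T cells (8 of 9 tested) moved with stage: averaged over the genotypes Trdc (-0.71 ± 0.09, adjusted p = 2.91e-06), Klrk1 (-2.11 ± 0.38, adjusted p = 0.00045) and Nkg7 (-1.68 ± 0.44, adjusted p = 0.0132) fell at day 7 and Prf1 rose (0.39 ± 0.11, adjusted p = 0.0182), as log2 fold changes ± SE. Their sum was 44.1 to 51.2 CPM in naive and 36.4 to 49.1 CPM in day 7 wild-type libraries, 45.6 to 64.3 and 36.8 to 54.5 CPM in knock-out, and 38.4 to 48.7 and 41.2 to 45.3 CPM in knock-in libraries, none of the 9 being at 0 in a whole group. The part of these markers and of depth in the values below was not tested.

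To compare genes with each other, levels were taken per kilobase of exon. The length was that of all GENCODE exons of a gene merged, which may differ from the length of the transcripts present. On this scale Mcl1 was far above the other members in each of the 6 groups and Bcl2 was next. In naive wild-type cells Mcl1 stood at 104 CPM per kb and Bcl2 at 20.9, and the lowest Mcl1 library was above the highest Bcl2 library in all 6 groups. The pore-forming effectors followed, Bax at 8.94 and Bak1 at 7.35 CPM per kb. Bcl2l11 stood at 5.82 and Bcl2l1 at 4.08 CPM per kb. The lowest 4 in naive wild-type cells were Bid (2.57 CPM per kb), Bbc3 (2.18), Bad (1.58) and Pmaip1 (0.261). The first 6 places were held in the same order in 5 of the 6 groups, while in wild-type cells at day 7 Bbc3 stood sixth at 4.86 CPM per kb, its libraries overlapping those of Bcl2l1 at 4.46. Bax and Bak1 overlapped in 4 of the 6 groups (wild-type at day 7, naive knock-out and both knock-in groups), Bak1 and Bcl2l11 in all but naive wild-type cells, and Bid and Bbc3 in each of the 5 groups where they were neighbours. Pmaip1 was last everywhere, on 2 to 74 counts per library, too few for a precise level.

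**Figure D1:**
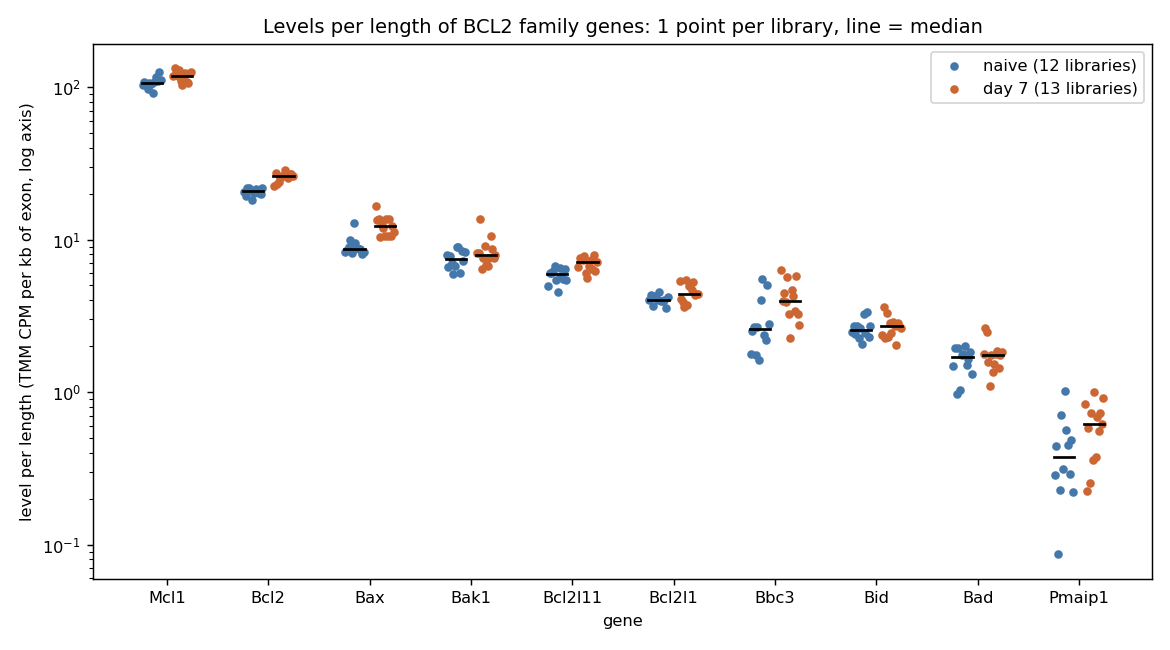
Level of the 10 members in CPM per kb of exon (log axis) in naive and day 7 libraries, the genotypes pooled. Each point is a library and the line is the median. Mcl1 and Bcl2 have the highest medians and Pmaip1 the lowest at both stages.

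The members also differed in how much they varied over the 25 libraries. Mcl1 was the steadiest, with a coefficient of variation of 9.24% and a 1.46-fold span from its lowest to its highest library. Bcl2l1 (12.4%), Bcl2 (12.8%) and Bcl2l11 (13.9%) followed. Bbc3 varied by 38.7% and Pmaip1 by 50.3%, but on few counts (Bbc3 had 24 to 523 per library), so counting error is part of both values. Bad varied by 22.9%, also on few counts (21 to 228 per library).

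The first comparison asked which of these genes had a different level in CD4 T cells on day 7 after EAE induction than in naive cells, within each genotype. In wild-type cells 3 of 10 members rose (Bcl2, Mcl1 and Bax) and none fell, against 1.18% of the 14703 tested genes that rose (edgeR quasi-likelihood test, Benjamini-Hochberg adjusted p under 0.05 over all tested genes). All 10 members had a positive log2 fold change in wild-type cells, with a median of 0.26 against -0.0024 for all tested genes. In knock-out cells Bcl2 alone rose (1 of 10, against 0.211% of all tested genes), 7 of 10 members were positive, and the median was 0.11. In knock-in cells Bcl2 alone rose as well (1 of 10, against 1.01%), 9 of 10 were positive, and the median was 0.24. With the change averaged over the 3 genotypes, which uses all 25 libraries and so is not independent of the single genotypes, Bcl2, Mcl1, Bcl2l11 and Bax rose (4 of 10, against 6.16%), none fell, and the median was 0.21. The fold changes were small, from 1.09-fold for Mcl1 to 1.36-fold for Bax in that average. Because the members were chosen with earlier results of these data known, the shares of all tested genes beside the counts do not measure an excess of calls. In bulk RNA, fewer or more cells of a type and less or more RNA per cell cannot be told apart.

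**Figure D2:**
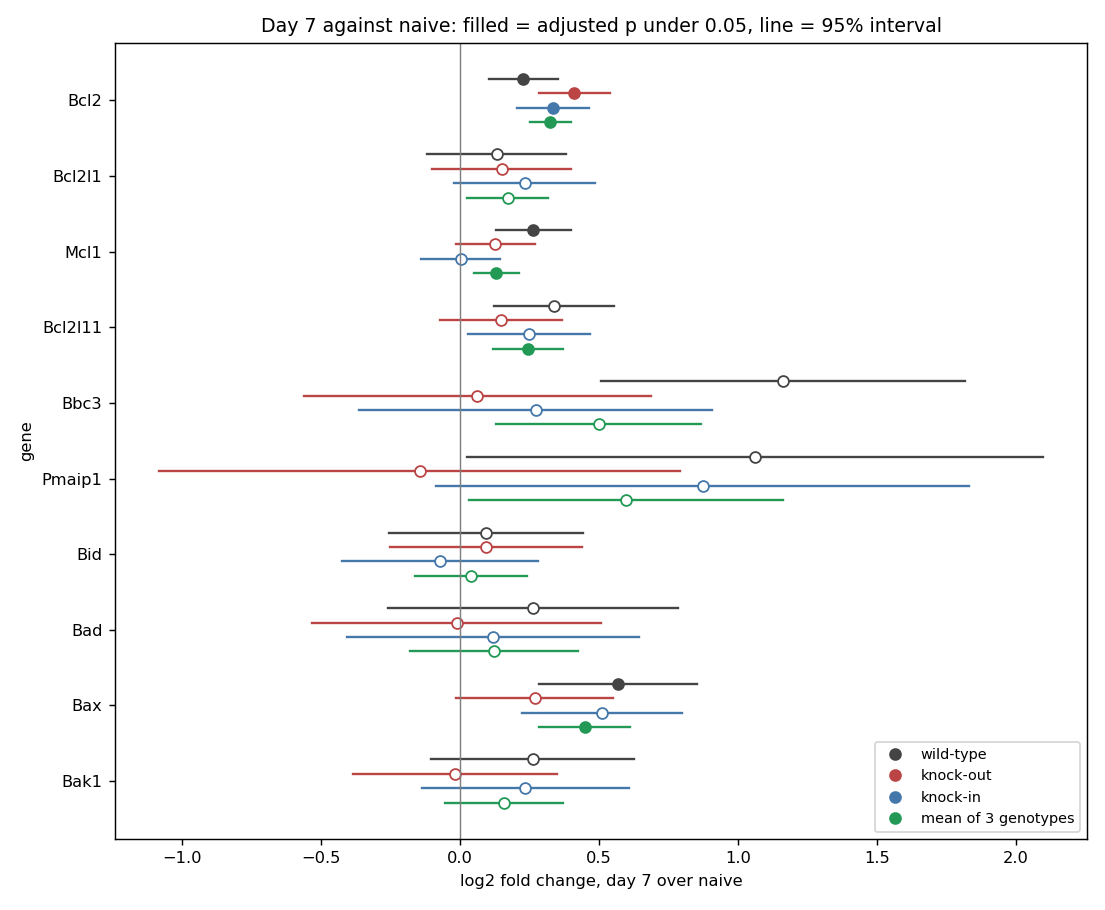
Log2 fold change of day 7 over naive for the 10 members in wild-type, knock-out and knock-in cells and averaged over the 3 genotypes, with 95% confidence intervals. Filled points passed an adjusted p of 0.05: Bcl2, Mcl1 and Bax in wild-type cells, Bcl2 in the other two genotypes, and Bcl2, Mcl1, Bcl2l11 and Bax in the average.

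Bcl2, the founding survival gene of the family, was higher at day 7 in each genotype. In wild-type cells it stood at 187, 178, 200.7 and 199 CPM in the 4 naive libraries and 205.2, 251, 212.4, 219.8 and 232 CPM in the 5 at day 7. In knock-out cells it stood at 194, 167, 184 and 197 CPM in the naive state and 239.6, 239, 261 and 248 CPM at day 7. In knock-in cells it stood at 195, 186, 182 and 200.5 CPM in the naive state and 232, 245, 246 and 239 CPM at day 7. The naive and day 7 libraries did not overlap in any of the 3 genotypes, and the naive means were close (191 ± 10.9, 186 ± 13.4 and 191 ± 8.49 CPM, SD, n = 4 each). The log2 fold change was 0.23 ± 0.06 (SE) in wild-type cells (adjusted p = 0.043, edgeR), 0.41 ± 0.06 in knock-out cells (adjusted p = 0.000726) and 0.34 ± 0.06 in knock-in cells (adjusted p = 0.0033). Averaged over the genotypes Bcl2 was 1.25-fold (95% confidence interval 1.19 to 1.32) higher (adjusted p = 4.9e-07). The knock-out and knock-in calls and the averaged call stood with each library left out in turn. The wild-type call was lost in 6 of 9 such fits, with any 1 of wild-type naive replicates 1, 2, 3 and 4 and wild-type day 7 replicates 2 and 5 left out (adjusted p up to 0.14), and also when only the wild-type libraries were fitted (adjusted p = 0.0888), without the low-count filter (adjusted p = 0.0591) and with a block on sets of neighbouring library numbers (adjusted p = 0.0944). Gm37053, which lies within the span of Bcl2 on the same strand, also rose, by 0.44 ± 0.08 (SE) on the log2 scale averaged over the genotypes (adjusted p = 0.000428).

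Mcl1 encodes a short-lived survival protein on which lymphocytes depend at every stage. In wild-type cells it stood at 354, 372, 358 and 333 CPM in the naive libraries and 404, 454, 421, 402 and 442 CPM at day 7. In knock-out cells it stood at 363, 361, 312 and 368 CPM in the naive state and 373, 354, 383 and 423 CPM at day 7. In knock-in cells it stood at 399, 375, 431 and 381 CPM in the naive state and 371, 362, 425 and 429 CPM at day 7. All 5 wild-type day 7 libraries were above all 4 naive ones, while the 2 stages overlapped in knock-out and knock-in cells, and the means of the 2 knock-in stages were almost equal (396 ± 25.3 and 397 ± 35.2 CPM, SD, n = 4 each). Mcl1 rose in wild-type cells by 0.26 ± 0.07 (SE) on the log2 scale (adjusted p = 0.0306, edgeR). The values in knock-out cells (0.13 ± 0.07, adjusted p = 0.458) and knock-in cells (0.0012 ± 0.07, adjusted p = 0.997) did not pass. The average over genotypes was 1.09-fold (95% confidence interval 1.03 to 1.16) higher (adjusted p = 0.0298). The wild-type call was lost in 6 of 9 fits that left out 1 library, with any 1 of wild-type naive replicates 1, 3 and 4 and wild-type day 7 replicates 2, 3 and 5 left out (adjusted p up to 0.123). The block on neighbouring library numbers ended it too (adjusted p = 0.0541). The averaged call was lost in 6 of 25, with any 1 of wild-type naive replicate 4, knock-in naive replicates 2 and 4, knock-in day 7 replicates 3 and 4 and knock-out day 7 replicate 4 left out (adjusted p up to 0.0593).

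Bcl2l1, the gene of BCL-XL, which activated T cells are known to use, did not pass in any genotype. Its group means ran from 18.04 to 21.1 CPM and its libraries between 16.3 and 24.8 CPM. The log2 fold change at day 7 was 0.13 ± 0.12 (SE) in wild-type, 0.15 ± 0.12 in knock-out and 0.23 ± 0.12 in knock-in cells, with a 95% interval of 0.02 to 0.32 for the average (adjusted p = 0.128). In knock-in cells the day 7 libraries (24.04, 19.9, 20.1 and 20.1 CPM) were all above the naive ones (18.1, 18.5, 16.3 and 19.3 CPM), by a narrow margin.

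**Figure D3:**
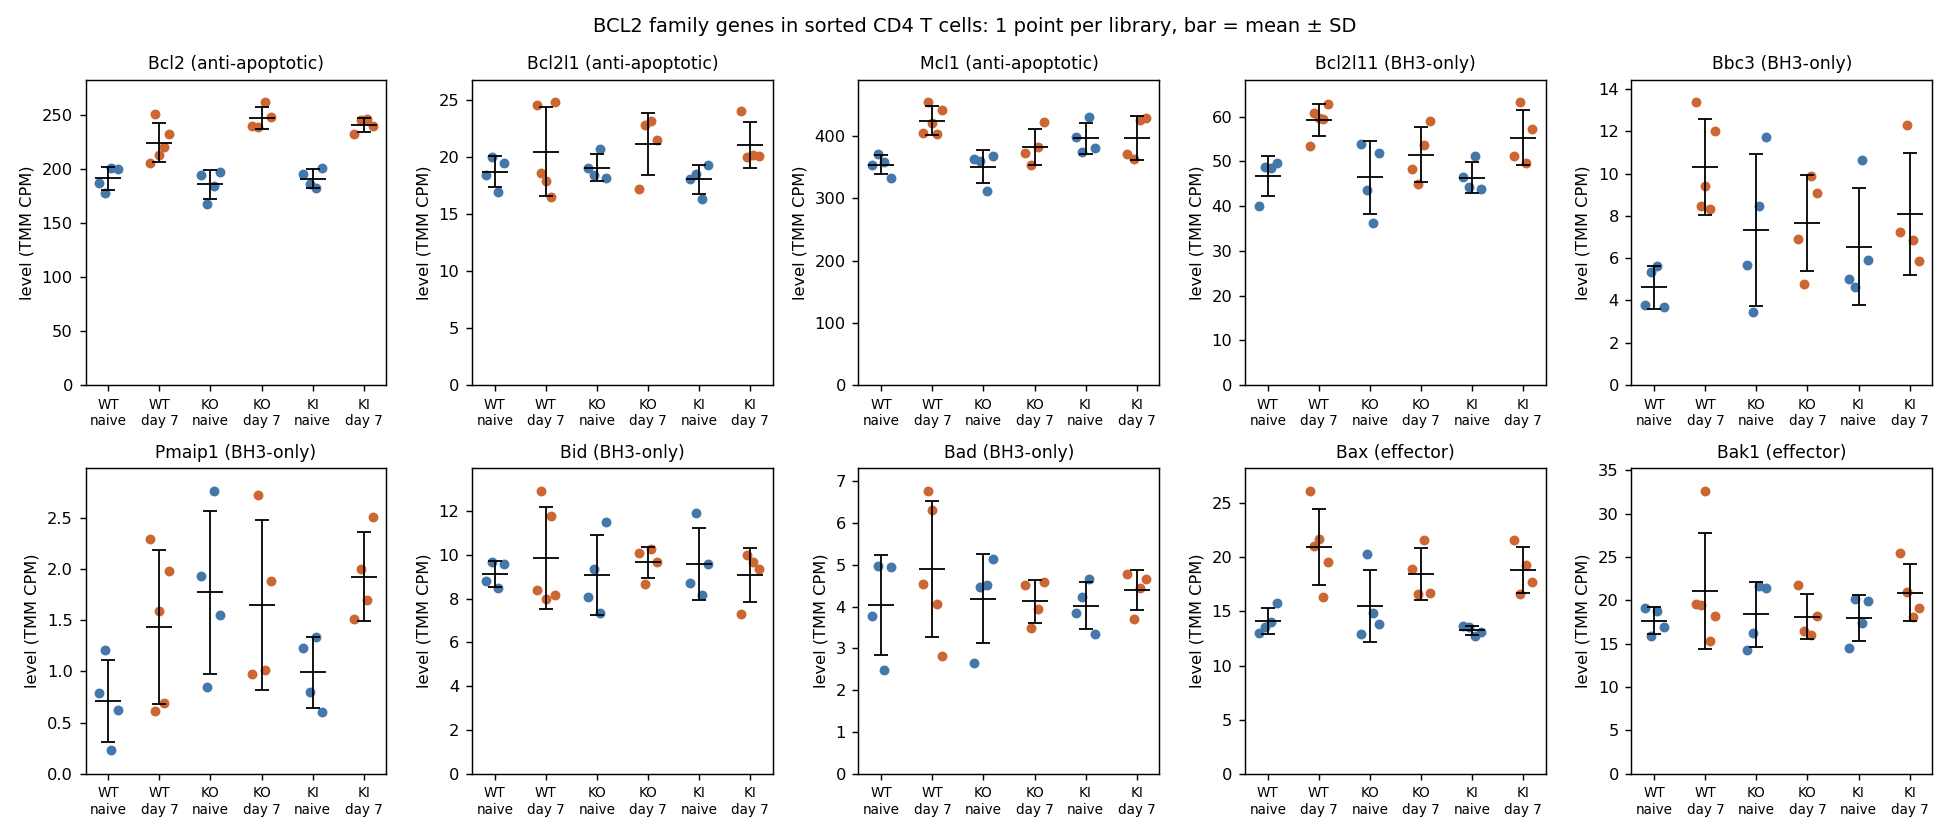
Level in CPM of each of the 10 members in all 25 libraries, by group, with the mean and SD. Bcl2 is higher at day 7 than in naive cells without overlap in all 3 genotypes, and Mcl1, Bcl2l11 and Bbc3 without overlap in wild-type cells only.

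Among the BH3-only genes, Bcl2l11 rose in the average over genotypes. The other 4 did not pass in any comparison of the main edgeR fit (TMM, filtered genes, all 25 libraries). Bcl2l11 encodes BIM, which binds every anti-apoptotic member and is the main death signal of T cells deprived of cytokine. In wild-type cells it stood at 40.03, 48.7, 48.6 and 49.6 CPM in the naive libraries and 53.4, 60.9, 59.7, 59.4 and 62.8 CPM at day 7. The knock-out libraries held 53.8, 43.6, 36.2 and 51.9 CPM in the naive state and 48.3, 44.9, 53.7 and 58.97 CPM at day 7. The knock-in libraries held 46.4, 44.2, 51.1 and 43.9 CPM in the naive state and 51.3, 63.2, 49.6 and 57.2 CPM at day 7. The wild-type stages did not overlap, and those of the other two genotypes did. Bcl2l11 was 1.18-fold (95% confidence interval 1.09 to 1.29) higher at day 7 in the average (log2 0.24 ± 0.06, SE, adjusted p = 0.00944, edgeR), and this call stood with each of the 25 libraries left out. The single genotypes gave 0.34 ± 0.10 in wild-type (adjusted p = 0.0909), 0.15 ± 0.11 in knock-out (adjusted p = 0.599) and 0.25 ± 0.11 in knock-in cells (adjusted p = 0.264), none of which passed. The wild-type value passed with DESeq2 (adjusted p = 0.0463), with limma voom (adjusted p = 0.0318), without the filter (adjusted p = 0.0171) and with only the wild-type libraries fitted (adjusted p = 0.0396). It did not pass with size factors in place of TMM (adjusted p = 0.0859) or with the block (adjusted p = 0.147).

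Bbc3 encodes PUMA, a BH3-only protein induced by p53 and by stress, and had the largest fold change of the 10 in wild-type cells. It stood at 3.77, 5.37, 5.65 and 3.71 CPM in the naive wild-type libraries and 13.4, 8.45, 9.43, 8.33 and 12.02 CPM at day 7. The knock-out libraries held 5.66, 3.47, 8.48 and 11.8 CPM in the naive state and 6.89, 4.80, 9.87 and 9.10 CPM at day 7. The knock-in libraries held 5.004, 4.63, 10.6 and 5.92 CPM in the naive state and 7.23, 12.3, 6.86 and 5.88 CPM at day 7. All wild-type day 7 libraries were above all naive ones, and the knock-out and knock-in stages overlapped widely. The naive knock-out libraries spread from 3.47 to 11.8 CPM, a wider span than the naive wild-type libraries had (3.71 to 5.65 CPM). The wild-type value was 2.24-fold (95% confidence interval 1.42 to 3.53) higher (log2 1.16 ± 0.32, SE) and fell just outside the threshold with edgeR (adjusted p = 0.0527). It was inside with DESeq2 (adjusted p = 0.00818), with size factors in place of TMM (adjusted p = 0.0496), without the filter (adjusted p = 2.07e-05) and when only the wild-type libraries were fitted (adjusted p = 0.00917). It was outside with limma voom (adjusted p = 0.0634) and with the block (adjusted p = 0.0857). The average over genotypes was 0.50 ± 0.18 (adjusted p = 0.0734, edgeR), which passed with DESeq2 (adjusted p = 0.0367) and without the filter (adjusted p = 0.00246) and did not pass with size factors, limma voom or the block (adjusted p = 0.07, 0.17 and 0.0685). Knock-out cells gave 0.06 ± 0.30 (adjusted p = 0.956) and knock-in cells 0.27 ± 0.31 (adjusted p = 0.769).

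Pmaip1, Bid and Bad did not pass at day 7 in any genotype. Pmaip1 encodes NOXA, a partner of MCL1. It stood at 0.785, 1.21, 0.235 and 0.619 CPM in naive and 2.30, 0.615, 1.59, 0.691 and 1.98 CPM in day 7 wild-type cells. Knock-out cells held 1.94, 0.850, 2.76 and 1.55 CPM in the naive state and 0.979, 2.73, 1.02 and 1.88 CPM at day 7. Knock-in cells held 1.23, 0.799, 1.33 and 0.607 CPM in the naive state and 1.51, 2.001, 1.69 and 2.51 CPM at day 7. The day 7 knock-in libraries were all above the naive knock-in ones, whereas the stages overlapped in the other two genotypes. Its log2 fold changes carried wide errors: 1.06 ± 0.51 (SE) in wild-type, -0.15 ± 0.46 in knock-out and 0.87 ± 0.47 in knock-in cells (adjusted p = 0.316, 0.929 and 0.393, edgeR). Bid, which caspase-8 cleaves to link death receptors to mitochondria, held group means of 9.07 to 9.85 CPM. Its averaged change was 0.04 ± 0.10 (95% interval -0.16 to 0.24, adjusted p = 0.867). Bad, which survival kinases inactivate by phosphorylation, held group means of 4.02 to 4.90 CPM and an averaged change of 0.12 ± 0.15 (95% interval -0.18 to 0.42, adjusted p = 0.671).

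Of the pore-forming effectors, Bax rose and Bak1 did not pass. Bax stood at 13.03, 13.6, 13.998 and 15.8 CPM in the naive wild-type libraries and 26.1, 21.1, 21.6, 16.3 and 19.6 CPM at day 7. The knock-out libraries held 12.9, 20.3, 14.9 and 13.9 CPM in the naive state and 18.9, 16.6, 21.6 and 16.7 CPM at day 7. The knock-in libraries held 13.7, 13.6, 12.7 and 13.1 CPM in the naive state and 21.6, 16.6, 19.3 and 17.7 CPM at day 7. The stages did not overlap in wild-type or knock-in cells, and in knock-out cells naive replicate 2 reached into the range of day 7. Bax rose in wild-type cells by 0.57 ± 0.14 (SE) on the log2 scale (adjusted p = 0.0249, edgeR) and was 1.36-fold (95% confidence interval 1.22 to 1.53) higher in the average (adjusted p = 0.000412), the largest averaged change among the called members. The knock-in value was 0.51 ± 0.14 (adjusted p = 0.0548) and the knock-out value 0.27 ± 0.14 (adjusted p = 0.422). The knock-in value passed with DESeq2 (adjusted p = 0.0239), limma voom (adjusted p = 0.00957), no filter (adjusted p = 0.0256) and only the knock-in libraries fitted (adjusted p = 0.0256). It did not pass with size factors (adjusted p = 0.0509) or the block (adjusted p = 0.0799). The averaged call stood with each library left out, whereas the wild-type call was lost in 5 of 9 such fits, with any 1 of wild-type naive replicates 1, 2 and 3 and wild-type day 7 replicates 1 and 3 left out (adjusted p up to 0.0911). Bak1 held group means of 17.7 to 21.04 CPM and an averaged change of 0.16 ± 0.10 (95% interval -0.05 to 0.37, adjusted p = 0.375). Its wild-type day 7 mean, the highest of the 6, rested on replicate 3 at 32.6 CPM, with the other 4 libraries between 15.4 and 19.5 CPM.

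Counted by overlap alone, 5 of 10 members in wild-type cells (Bcl2, Mcl1, Bcl2l11, Bbc3 and Bax) had every day 7 library above every naive one, as did 2.94% of all tested genes. In knock-out cells this held for Bcl2 alone (1 of 10, against 2.43%). In knock-in cells it held for Bcl2, Bcl2l1, Pmaip1 and Bax (4 of 10, against 4.7%). No member had all its day 7 libraries below its naive ones in any genotype. Wild-type naive libraries were also the shallowest, so depth moved with stage in that genotype and with genotype in the naive state. The naive median totals were 7679751 counts in wild-type, 27409519 in knock-out and 28165344 in knock-in libraries. The part of depth was not tested.

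Survival depends on the balance between the proteins of these genes, which was not measured. Ratios of their RNA were taken within each library, per length and on the log2 scale, as a description with no test. Mcl1 exceeded Bcl2 by a log2 ratio of 2.31 ± 0.14 (SD over 4 libraries) in naive wild-type cells and 2.35 ± 0.06 (SD over 5 libraries) in wild-type cells at day 7. In knock-in cells the same ratio was 2.48 ± 0.13 in naive and 2.14 ± 0.12 in day 7 cells (SD, n = 4 each), without overlap (2.35 to 2.66 against 1.99 to 2.26). In knock-out cells it was 2.34 ± 0.14 and 2.05 ± 0.10, and the ranges met at their edge. The lower ratio at day 7 in knock-out and knock-in cells goes with a called rise of Bcl2 and a change of Mcl1 that did not pass. Bcl2 over Bcl2l11, the ratio of a survival protein's gene to that of its direct antagonist, stayed between 1.73 and 2.08 in the means of the 6 groups, with overlapping stages in every genotype. Bcl2 over Bax was 1.23 ± 0.09 in naive and 0.89 ± 0.30 in day 7 wild-type cells, again with overlap. Mcl1 over Bcl2l11 kept means between 4.08 and 4.33.

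**Figure D4:**
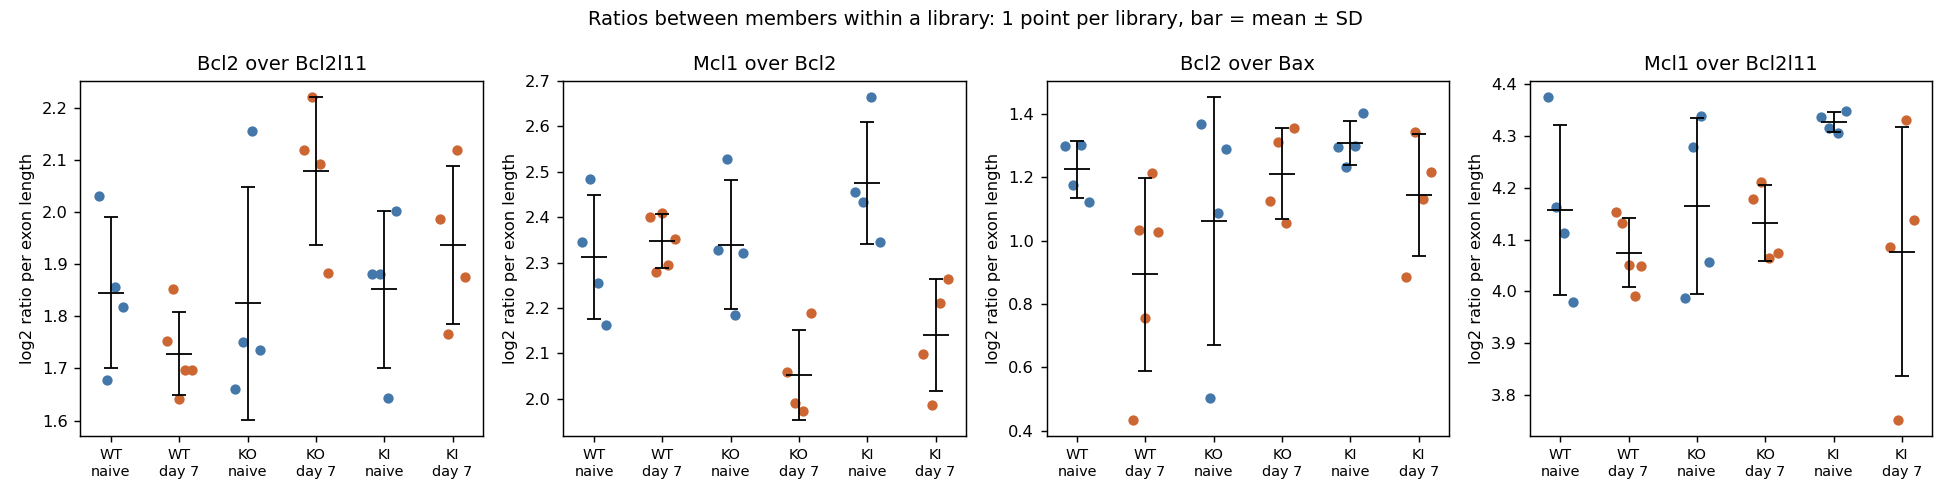
Log2 ratio per exon length of Bcl2 over Bcl2l11, Mcl1 over Bcl2, Bcl2 over Bax and Mcl1 over Bcl2l11, with 1 point per library and the mean and SD of each group. Mcl1 over Bcl2 is lower at day 7 than in naive knock-in cells without overlap.

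The second comparison asked whether loss or knock-in of miR-150 changed the level of the members at a given stage. No member passed in knock-out against wild-type cells in the naive state (0 of 10, against 0.0204% of tested genes, edgeR) or at day 7 (0 of 10, against 0.0476%). Knock-in against wild-type cells gave 0 of 10 in the naive state (against 0.0136%) and 0 of 10 at day 7 (against 0%). The averages over both stages gave 0 of 10 for the knock-out (against 0.17%) and 0 of 10 for the knock-in (against 0%). DESeq2 and limma voom gave 0 members in each of these 6 comparisons. At an unadjusted p under 0.05 stood 2 members in the naive knock-out comparison (Bbc3 and Pmaip1), 2 at day 7 (Bcl2 and Mcl1), 1 in the knock-out average (Pmaip1), 1 in the naive knock-in comparison (Mcl1) and none in the other two. Across all tested genes the same cutoff held 1110, 1390, 1346 and 333 of 14703 genes.

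The intervals show how large a difference these libraries leave possible. For Bcl2, naive knock-out cells against naive wild-type cells had a 95% interval for the change of -11.2% to 6.36%, and naive knock-in cells -8.91% to 9.19%. For Mcl1 the same intervals were -10.1% to 9.42% and 1.48% to 23.6%. At day 7, Bcl2 in knock-out cells was 0.14 ± 0.06 (log2, SE) from wild-type (adjusted p = 0.418, edgeR), and Mcl1 -0.15 ± 0.07 (adjusted p = 0.453), with overlapping libraries in both. The naive knock-in level of Mcl1 was above that of every naive wild-type library (399, 375, 431 and 381 against 354, 372, 358 and 333 CPM), 1 of 10 members against 1.82% of tested genes. Its log2 difference of 0.16 ± 0.07 (SE) did not pass (adjusted p = 0.9995). No other member had libraries without overlap between genotypes in any of the 4 comparisons within a stage, where the share of tested genes in either direction was 4.71% and 2.03% for the knock-out and 3.22% and 1.47% for the knock-in. Bcl2l11 in the knock-out averaged over stages had an interval of -16.3% to 3.51%, and Bax, the member closest to the Mir150 locus, -14.5% to 12.8%. For the rarest members the intervals were wide: naive knock-out Pmaip1 was 1.34 ± 0.52 (log2, SE) from wild-type with an interval of 0.28 to 2.40 (adjusted p = 0.541), and naive knock-out Bbc3 0.68 ± 0.33 with 0.0049 to 1.36 (adjusted p = 0.66). The naive wild-type libraries were the shallowest group, and the part of depth in these differences was not tested.

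**Figure D5:**
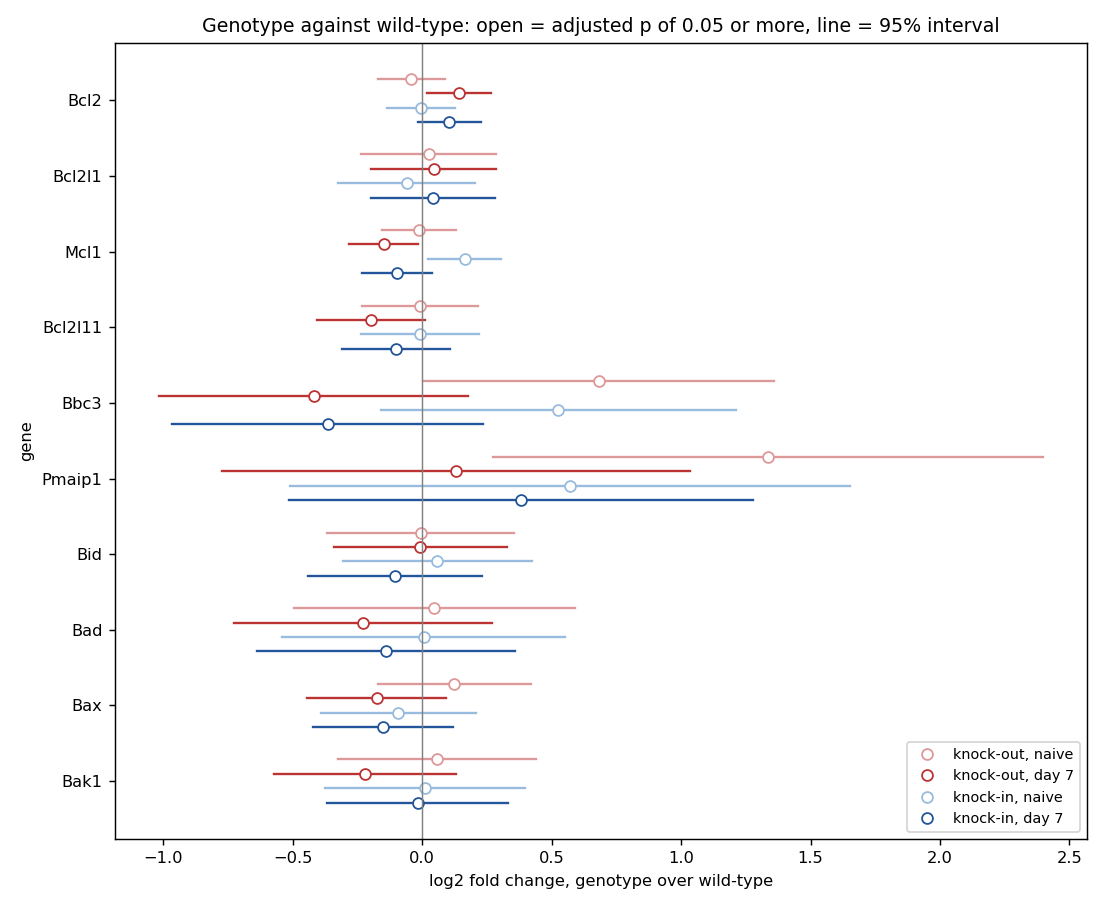
Log2 difference of knock-out and knock-in cells from wild-type cells for the 10 members, in the naive state and at day 7, with 95% confidence intervals. No value passed an adjusted p of 0.05, and the intervals are narrowest for Bcl2 and Mcl1 and widest for Pmaip1.

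The third comparison asked whether the day 7 change itself differed between genotypes, the test that a call in one genotype and not in another needs. No member passed this interaction for the knock-out (0 of 10, against 0% of tested genes, edgeR) or for the knock-in (0 of 10, against 0%), and DESeq2 and limma voom gave 0 members as well. At an unadjusted p under 0.05 stood Bcl2 and Bbc3 for the knock-out and Mcl1 for the knock-in, among 1145 and 558 of the 14703 genes. The change of Bcl2 was larger in the knock-out than in wild-type cells by 0.18 ± 0.09 (log2, SE; 95% interval 0.01 to 0.36; adjusted p = 0.628). For Bbc3 the difference was -1.10 ± 0.44 in the knock-out (interval -2.003 to -0.20, adjusted p = 0.552) and -0.89 ± 0.44 in the knock-in (interval -1.80 to 0.02, adjusted p = 0.999). For Mcl1 it was -0.14 ± 0.10 in the knock-out (interval -0.33 to 0.06) and -0.26 ± 0.10 in the knock-in (interval -0.46 to -0.07, adjusted p = 0.999). Both interactions share the wild-type libraries, of which the naive ones were the shallowest group, and the part of depth was not tested. Without the low-count filter Bbc3 passed the knock-out interaction (adjusted p = 0.047). The wild-type calls of Mcl1 and Bax are therefore not shown to be particular to wild-type cells.

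The other genes of the pathway were read from 4 further lists. Of 15 further BCL2 family genes 11 were tested, among them Bcl2l2, Bok and Bmf, and none passed in any of the 12 comparisons with edgeR (7 values had an unadjusted p under 0.05, and DESeq2 and limma voom called none). Of the caspase cascade and its inhibitors all 19 were tested. Only Cycs (cytochrome c, released through the effectors' pores) rose in wild-type cells at day 7, by 0.46 ± 0.12 (adjusted p = 0.0382), a call lost with any 1 of wild-type day 7 replicates 1, 3 and 5 and wild-type naive replicates 2, 3 and 4 left out (adjusted p up to 0.129). In the average over genotypes Cycs rose by 0.26 ± 0.07 (adjusted p = 0.0136) and Birc5 (survivin, a gene of dividing cells) by 1.23 ± 0.24 (adjusted p = 0.00119). The median of this list in the average was -0.01, close to that of all tested genes (-0.0036). Of 12 death receptor genes, Cflar, whose product c-FLIP restrains caspase-8, fell in knock-in cells (-0.26 ± 0.05, adjusted p = 0.00626) and in the average (-0.17 ± 0.03, adjusted p = 0.000374). Ripk3, a kinase of necroptosis, rose in the average (0.32 ± 0.10, adjusted p = 0.0292), a call lost with any 1 of wild-type naive replicate 1, knock-in naive replicate 1, knock-in day 7 replicate 1 and knock-out day 7 replicate 3 left out (adjusted p up to 0.0654). With limma voom Ripk3 was not called. The caspase and death receptor lists had no call in any genotype or interaction comparison with edgeR, DESeq2 or limma voom (9 and 1 values had an unadjusted p under 0.05 with edgeR).

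The fourth list held 21 upstream regulators of BCL2 family genes and proteins, 20 of them tested. Pim1, a kinase induced by cytokine signals that phosphorylates BAD, rose in all 3 genotypes: 0.80 ± 0.13 (adjusted p = 0.000729) in wild-type, 0.64 ± 0.13 (adjusted p = 0.0234) in knock-out and 1.18 ± 0.14 (adjusted p = 8.57e-06) in knock-in cells. Its group means ran from 36.04 to 81.9 CPM. The knock-out call was lost with any 1 of knock-out day 7 replicates 1 and 3 and knock-out naive replicates 2 and 3 left out (adjusted p up to 0.0863). Atf4, a transcription factor of the integrated stress response, rose in wild-type (0.81 ± 0.10, adjusted p = 1.6e-05) and knock-in cells (0.57 ± 0.10, adjusted p = 0.00245), and so did Trib3, a pseudokinase induced by ATF4 (1.23 ± 0.31, adjusted p = 0.0313, and 1.37 ± 0.30, adjusted p = 0.0132). The Trib3 calls were lost with any 1 of wild-type naive replicates 1, 2, 3 and 4 and wild-type day 7 replicates 3 and 5 left out (adjusted p up to 0.0999), and in knock-in cells with any 1 of knock-in naive replicates 1 and 3 and knock-in day 7 replicate 1 left out (adjusted p up to 0.0759). In the average over genotypes 5 of 20 rose and 2 fell, with a median of 0.05. The risers were Pim1 (0.87 ± 0.08, adjusted p = 1.1e-08), Atf4 (0.56 ± 0.06, adjusted p = 2.65e-07), Trib3 (0.97 ± 0.17, adjusted p = 0.000431), Pim2, a kinase related to Pim1 (0.42 ± 0.09, adjusted p = 0.00331), and Ddit3, the stress factor CHOP (0.26 ± 0.08, adjusted p = 0.0499). Those that fell were Usp9x, a deubiquitinase of MCL1 (-0.15 ± 0.04, adjusted p = 0.0147), and Il7r, the receptor of the survival cytokine interleukin-7 (-0.17 ± 0.05, adjusted p = 0.0219), the latter not called without knock-out day 7 replicate 3 (adjusted p = 0.0534). Ddit3 was at the threshold, and its call was lost in 18 of 25 fits with 1 library left out (adjusted p up to 0.113). Ddit3, Usp9x and Il7r were named after their values were seen. Il7r was also the single regulator that differed by genotype, at -0.32 ± 0.06 (adjusted p = 0.0171) in the knock-out averaged over stages, a value that did not pass with limma voom (adjusted p = 0.057). Trp53, Foxo1 and Foxo3, transcription factors that drive Bbc3 and Bcl2l11, gave -0.04 ± 0.04 (adjusted p = 0.585), -0.04 ± 0.03 (adjusted p = 0.427) and 0.05 ± 0.03 (adjusted p = 0.401) in the average with edgeR, also named after their values were seen. In wild-type cells Foxo3 gave 0.17 ± 0.06 (adjusted p = 0.124) with edgeR, and limma voom called it there. Over the day 7 comparisons edgeR called 14 of 80 values of this list, DESeq2 17 and limma voom 18. Stat5b was called at day 7 with DESeq2 and with limma voom but not with edgeR, and was also named after these calls were seen.

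Early response genes, which handling of cells as well as stimulation can induce, moved with stage beside the members. Of 17 listed genes 15 were tested, and 10 rose at day 7 in wild-type, 7 in knock-out and 9 in knock-in cells, with none lower and median log2 fold changes of 1.99, 0.88 and 0.47. Their summed level was 585 to 717 CPM in naive and 1288 to 2441 CPM in day 7 wild-type libraries, 718 to 781 and 1049 to 1903 CPM in knock-out, and 945 to 1238 and 1205 to 2295 CPM in knock-in libraries. Junb, an AP-1 subunit, rose by 1.99 ± 0.12 (adjusted p = 5.09e-12) in wild-type, 1.21 ± 0.11 (adjusted p = 3.51e-07) in knock-out and 1.34 ± 0.11 (adjusted p = 3.48e-08) in knock-in cells. Over the genotype and interaction comparisons 38 of 120 values of this list had an unadjusted p under 0.05 with edgeR. DESeq2 called 8 of the 120 and limma voom 1. In the naive state all 15 tested genes were positive in knock-in against wild-type cells. Their median log2 fold change was 1.01, against -0.0013 for all tested genes. With edgeR 2 of them were called, Jun by 1.90 ± 0.29 (adjusted p = 0.00913) and Junb by 0.68 ± 0.12 (adjusted p = 0.0345). Jun was lost with any 1 of wild-type naive replicates 1, 2 and 3 and knock-in naive replicate 1 left out (adjusted p up to 0.119) and Junb with any 1 of wild-type naive replicates 1, 2, 3 and 4 and knock-in naive replicates 1, 2 and 4 left out (adjusted p up to 0.343). Of the 3 naive groups, knock-in cells had the highest summed level of these genes and the highest mean of Mcl1, though the Mcl1 difference did not pass. The part of these genes in the members' day 7 changes was not tested.

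Over the 25 libraries, which fall into the 6 groups and share depth and handling, the log2 levels of the members were described by Pearson's r with no test. The highest r among pairs of members was between Mcl1 and Bcl2l11, at 0.67, and it was 0.50 for the deviations from the group means. Bcl2 with Bcl2l11 gave 0.60 (0.38 for deviations), Bcl2l11 with Bbc3 0.59 (0.37), and Bcl2 with Bax 0.54 (-0.31). For the last pair r was positive over all libraries and negative for the deviations from the group means. The 3 protein-coding genes most like each member were taken from the tested genes with a mean of at least 5 CPM, 8598 candidates. For Bcl2 these were Fos (0.89), Arl4a (0.87) and Map1lc3b (0.86), Fos being an early response gene. For Mcl1 they were Cdkn1b (0.83), Hsp90aa1 (0.81) and Btg2 (0.81), and for Bcl2l11 Dusp10 (0.77), Zfp36 (0.76) and Cdkn1b (0.76). Bax was nearest to Jak3 (0.85), Nfkbiz (0.81) and Dtx1 (0.79), Bbc3 to Ube2s (0.74), Per1 (0.73) and Khnyn (0.73), and Bcl2l1 to Tspan31 (0.74), Adcy3 (0.71) and Marcksl1 (0.70). For the remaining members the nearest genes were Pmf1 (0.76), Galm (0.68) and Larp1b (0.67) for Pmaip1, Patl1 (0.75), Atg4b (0.70) and Tnpo2 (0.68) for Bid, Magoh (0.67), Vps26c (0.65) and Galns (0.62) for Bad and Srp14 (0.76), Mphosph6 (0.75) and Ndufa4 (0.74) for Bak1. Cdkn1b was listed for both Mcl1 and Bcl2l11, and no member was among the 3 nearest genes of another.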

How the data were processed

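Total RNA of 25 libraries of sorted CD4 T cells was measured in 6 groups. The authors deposited raw read counts per Ensembl gene; per the submitters' processing notes the build was mm10 and DESeq2 was used, while the aligner, the counting tool and its strand setting are not given in the sources used here. The deposited counts name 46078 genes, of which 45229 have a symbol in GENCODE M21, and no row without a gene name was present. The members and the gene lists were chosen with earlier results of these data known.

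Counts were tested with edgeR 4.0.16 (R 4.3.3): filterByExpr (minimum count 10, minimum total 15), TMM scaling, 1 mean per group over all 25 libraries, the quasi-likelihood test, and Benjamini-Hochberg adjustment over 14703 genes with a threshold of 0.05. The common biological coefficient of variation was 0.210. Standard errors are the log2 fold change divided by the root of F. Levels are TMM-scaled CPM, divided by the kilobases of GENCODE exons for comparisons between genes. Replicate numbers follow accession order and pair nothing. Alternatives were DESeq2 1.42.0, limma voom with quality weights (limma 3.58.1), DESeq2's size factors in edgeR, no low-count filter, a fit of only the groups compared, a block on sets of neighbouring library numbers, and each library left out in turn. The named genes are all 10 members, up to 4 called genes of each other list per comparison by p, and the 3 genes most like each member. Mir150 was named as the check of genotype. Outside this rule, Ddit3, Usp9x, Il7r at day 7, Trp53, Foxo1, Foxo3 and Stat5b were named after their values were seen. Cd4, Ighm, Bcl2l2, Bok, Bmf and the genes that overlap a member were named outside it too. The edgeR step was run on simulated counts. The changes planted there were larger than the averaged changes of the called members, so that run does not show how changes this small are detected.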

Additional observations from a re-analysis of the deposited data

Results flagged for a closer look

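In 4 of 60 groups of a member's libraries, 1 library stood apart from the rest of its group by Dixon's test, a rule by which chance alone marks about 1 in 20 groups. Bcl2l1 in knock-in cells at day 7 was highest in replicate 1, at 24.04 CPM, with the other 3 libraries between 19.9 and 20.1 CPM. Mcl1 in naive knock-out cells was lowest in replicate 3, at 312 CPM, with the others between 361 and 368 CPM. Bcl2l11 in naive wild-type cells was lowest in replicate 1, at 40.03 CPM, with the others between 48.6 and 49.6 CPM. Bak1 in wild-type cells at day 7 was highest in replicate 3, at 32.6 CPM, with the others between 15.4 and 19.5 CPM. Each of these 4 libraries belongs to a different group.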

How the results depend on the processing

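The calls of Bcl2 in knock-out and knock-in cells and in the average over genotypes, and those of Bax and Bcl2l11 in the average, held under every alternative tried. Of 193 alternatives of the 9 called member values, 166 stayed past the threshold and 0 changed sign. Of 2033 alternatives of the member values not called, 20 passed and 172 had the other sign. The count of members called at day 7 in wild-type cells went from 3 to 5 with DESeq2, to 1 (Bax) with a block on sets of library numbers, and ran from 0 to 4 with 1 library left out. In knock-in cells it went from 1 to 2 with DESeq2, with limma voom, without the low-count filter and with only the groups compared fitted. The knock-out interaction went from 0 members to 1 without the filter. The cause of these shifts was not tested.

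The share of all tested genes called also shifted. The tests covered 14703 genes as reported, 14699 with DESeq2 and 29775 without the filter, so shares without the filter have another base. At day 7 in wild-type cells 2.14% of genes were called, against 3.39% with DESeq2, 3.51% with limma voom, 3% (894 genes against 315) without the filter, and 0.95% (without wild-type naive replicate 1) to 3.19% (without wild-type day 7 replicate 4) with 1 library left out. In knock-out cells 0.408% were called, against 1.51%, 0.109% and 1.81% under the same settings, 0.246% with only the groups compared, and 0.193% (without knock-out naive replicate 3) to 0.616% (without knock-out naive replicate 4). In knock-in cells 2.02% were called, against 3.39%, 4.9%, 2.99%, and 0.716% (without knock-in day 7 replicate 1) to 2.52% (without knock-in day 7 replicate 3). Knock-out against wild-type called 0.0204% of genes in naive cells (DESeq2 0.109%, no filter 0.494%). At day 7 it called 0.0476% (DESeq2 0.524%, limma voom 0.0136%, no filter 1.17%, block 0.0884%, only the groups compared 0.00715%, and 0.0132% to 0.1% with 1 library left out). Averaged over stages it called 0.17% (DESeq2 0.646%, no filter 0.893%, only the groups compared 0.0976%, and 0.0727% to 0.271%). Knock-in against wild-type called 0.0136% in naive cells (DESeq2 0.034%, limma voom 0.0272%, no filter 0.198%, block 0%, only the groups compared 0.0824%, and 0% to 0.0334%). It called 0% at day 7 (no filter 0.322%, and 0% to 0.0066%) and 0% averaged over stages (DESeq2 0.0068%, no filter 0.282%, and 0% to 0.0137%). The knock-out interaction called 0% (DESeq2 0.0068%, no filter 0.682%) and the knock-in interaction 0% (DESeq2 0.0068%, limma voom 0.0136%, no filter 0.366%).

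No paired analysis was possible because each library has a number of its own and the labels share none between groups or say that neighbours belong together. The block on sets of neighbouring numbers is a stand-in, and under it Bcl2 (adjusted p = 0.0944) and Mcl1 (adjusted p = 0.0541) were not called in wild-type cells with edgeR. The average over genotypes uses all groups, so it has no separate fit of only the groups compared. Depth limits Pmaip1, which had 2 to 74 counts per library, Bad, which had 21 to 228, and Bbc3, which had 24 to 523.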
